A study of Mus musculus with 12 samples.

Results

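The mitotic kinesins described here are 10 motor proteins of spindle assembly, chromosome movement and cytokinesis: Kif11, Kif15, Kif18a, Kif22, Kif4, Kif2c, Kif23, Kif20a, Kif20b and Kif14. They are listed by symbol and role, with no threshold on their measured values, and all 10 were found among the 18546 genes of the deposited expression table. This list and the others used below were, however, chosen with earlier results of these data known. Their RNA was followed in hematopoietic stem cells (HSCs) sorted from C57BL/6 mouse bone marrow at 10 to 12 weeks of age, by the SLAM gate of CD150 without CD48 on lineage-negative cells with Sca1 and cKit. There were 4 genotypes with 3 libraries each. NrasG12D/+ cells carry an activating change in 1 copy of the Ras GTPase Nras, NrasG12D/+;Tet2+/- cells (called compound mutants here) carry that allele and lack 1 copy of the cytosine demethylation enzyme Tet2, Tet2+/- cells have only the Tet2 lesion, and wild-type cells have neither. The labels name no recombinase or promoter behind either allele, and they do not say whether a library came from 1 mouse or from several, so the p-values below measure the spread between these libraries, part of which may be technical.

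Kinesins are motors that walk along microtubules, or take them apart at their ends, using ATP. Most kinesins carry cargo in cells at rest, but a subset is made mainly in G2 and M phase and then destroyed as cells leave mitosis, so its RNA is usually read together with other cell cycle genes. Adult HSCs are known as a mostly quiescent population, in which few cells are in mitosis at any time. In RNA from sorted bulk cells, a lower level may come from fewer cells that express a gene or from less RNA per cell, and these cannot be told apart.

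Many G2/M genes share a short promoter element, the cell cycle genes homology region (CHR, letters TTTGAA), which MuvB complexes bind, often with CCAAT boxes a short distance upstream. RefSeq promoter windows of 300 bases (250 before to 50 after the annotated start, build GRCm38.p6) were found for 9 of the 10 genes, with none for Kif20a. Searched on both strands, TTTGAA was present in 8 of these 9 windows and in 17.9% of all 32851 windows, and it lay within 50 bases of the start in 6 of 9 and in 4.94% of all windows. CCAAT, searched on both strands too, was present in 5 of 9 windows and in 37.4% of all windows, and CCAAT together with a TTTGAA within 50 bases of the start in 4 of 9 and in 2.08%. The limit of 50 bases was chosen after the windows had been read, and a match is a description of the sequence and not a bound site. The 6 genes with a TTTGAA near the start are shown 5′ to 3′ on the gene's strand. The capitals mark TTTGAA or its reverse complement TTCAAA, and ATTGG, the reverse complement of CCAAT. The stretches of Kif11 (chr19:37376282-37376381, plus strand), Kif22 (chr7:127042421-127042520, minus strand) and Kif15 (chr9:122950981-122951080, plus strand) run over the 100 bases before the start, and those of Kif23 (chr9:61946780-61946809, minus strand), Kif4 (chrX:100626060-100626089, plus strand) and Kif20b (chr19:34922352-34922381, plus strand) are 30 bases across the start.
Kif11: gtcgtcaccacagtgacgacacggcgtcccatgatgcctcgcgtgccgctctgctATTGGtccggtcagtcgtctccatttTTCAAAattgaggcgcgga
Kif22: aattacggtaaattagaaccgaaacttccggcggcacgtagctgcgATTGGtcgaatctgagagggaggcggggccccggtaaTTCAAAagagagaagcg
Kif15: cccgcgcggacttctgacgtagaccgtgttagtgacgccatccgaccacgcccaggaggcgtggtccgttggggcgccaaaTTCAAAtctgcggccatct
Kif23: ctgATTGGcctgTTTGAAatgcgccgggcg
Kif4: ATTGGctggcgcctctgggatcaaTTTGAA
Kif20b: cgagccgccattgTTTGAATTTGAAaaccg
In Kif11 and Kif22 the inverted CCAAT precedes the inverted CHR within the same stretch, in Kif23 and Kif4 both lie at the start, and Kif20b has TTTGAA back to back. Kif2c and Kif14 had TTTGAA farther upstream, and Kif18a had neither motif in its window.

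The libraries held 19205045 to 36890942 reads in genes. Wild-type replicate 1 and NrasG12D/+ replicate 2 had the most genes at 0 reads, up to 3824 against 1000 in the library with the fewest, and the median of NrasG12D/+ against wild type is given with and without them. All 10 HSC markers examined had reads in every library, and their summed level was 224 to 280 RPKM in NrasG12D/+, 229 to 276 in compound mutants, 271 to 275 in Tet2+/- and 236 to 273 in wild type. Cd48, which the gate excludes, was at 0 reads in 9 of 12 libraries. The RNA of whole Nras and Tet2 did not check the genotypes, since a point mutation or the loss of part of a gene need not alter it: Nras stood at 5.74 ± 0.882, 6.24 ± 0.981, 6.08 ± 0.778 and 5.58 ± 0.597 RPKM in NrasG12D/+, compound, Tet2+/- and wild-type cells (SD, n = 3 each), and Tet2 at 5.71 ± 1.16, 4.98 ± 0.615, 4.72 ± 0.579 and 4.95 ± 0.0301 RPKM in the same genotypes.

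Every one of the 10 kinesins had at least 1 RPKM in at least 3 libraries and was tested among 15478 genes. RPKM, a read count divided by gene length and by library size, allows a gene to be compared between libraries, but levels of different kinesins could be compared only after the gene lengths behind the deposited values had been examined. For Kif4, Kif2c, Kif18a and Kif14 that length equalled the summed exons of all annotated transcripts, with shared bases counted repeatedly, at 6386, 9339, 17333 and 28104 bases. These are 1.28, 3.29, 5.14 and 3.14 times the longest coding transcript. Of the others, Kif20a had 1.94 times its longest coding transcript and the remaining 5 genes about the length of it. Rescaled to the longest coding transcript, Kif11 led in NrasG12D/+ cells at 34.3 ± 4.71 RPKM, ahead of Kif20b at 21.1 ± 1.21, by more than their spread (SD, n = 3). Kif22, Kif23 and Kif15 followed with SDs that overlapped that of Kif20b, at 19.5 ± 7.27, 18.9 ± 4.42 and 18.9 ± 2.14. Kif2c, at 10.2 ± 1.06, stood below these by more than the SDs, and its SD overlapped those of Kif4, Kif20a and Kif18a, while Kif14 was last at 5.08 ± 1.05. In wild-type cells Kif20b was first at 19.1 ± 5.26 and Kif11 next at 16.6 ± 1.89, and Kif18a was last at 4.18 ± 1.74. There the SDs of all neighbours in the order overlapped. This rescaling alters no comparison between genotypes, and all values below are RPKM as deposited.

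Kif11 (ENSMUSG00000012443, mm10 chromosome 19, 37376403 to 37421859), the motor that slides antiparallel microtubules apart and separates the spindle poles, was the kinesin whose genotypes lay farthest apart for their spread. It stood at 39.7, 32.2 and 31.05 RPKM in the NrasG12D/+ libraries, at 42.7, 29.8 and 27.3 in the compound mutants, at 19.4, 22.4 and 20.8 in Tet2+/- and at 18.3, 17.0 and 14.6 in wild type. All 6 libraries with the NrasG12D allele lay above all 6 without it, with 27.3 RPKM as the lowest carrier and 22.4 as the highest non-carrier. The Tet2+/- libraries in turn lay just above the wild-type ones. Means were 34.3 ± 4.71, 33.2 ± 8.24, 20.9 ± 1.50 and 16.6 ± 1.89 RPKM in NrasG12D/+, compound, Tet2+/- and wild-type cells (SD, n = 3 each), from 1765 to 5722 reads per library.

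Kif15 (chromosome 9, 122951046 to 123018733), which cooperates with Kif11 in keeping the spindle bipolar, varied more within genotypes. It stood at 16.6, 20.8 and 19.6 RPKM in NrasG12D/+, at 24.1, 14.7 and 26.0 in compound mutants, at 12.4, 11.2 and 13.9 in Tet2+/- and at 20.7, 7.15 and 16.1 in wild type. The compound mutants lay above the Tet2+/- libraries. The wild-type libraries spanned those of Tet2+/- and overlapped the compound mutants. They ran from the lowest value of the 12 to a level inside the NrasG12D/+ range.

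**Figure D1:**
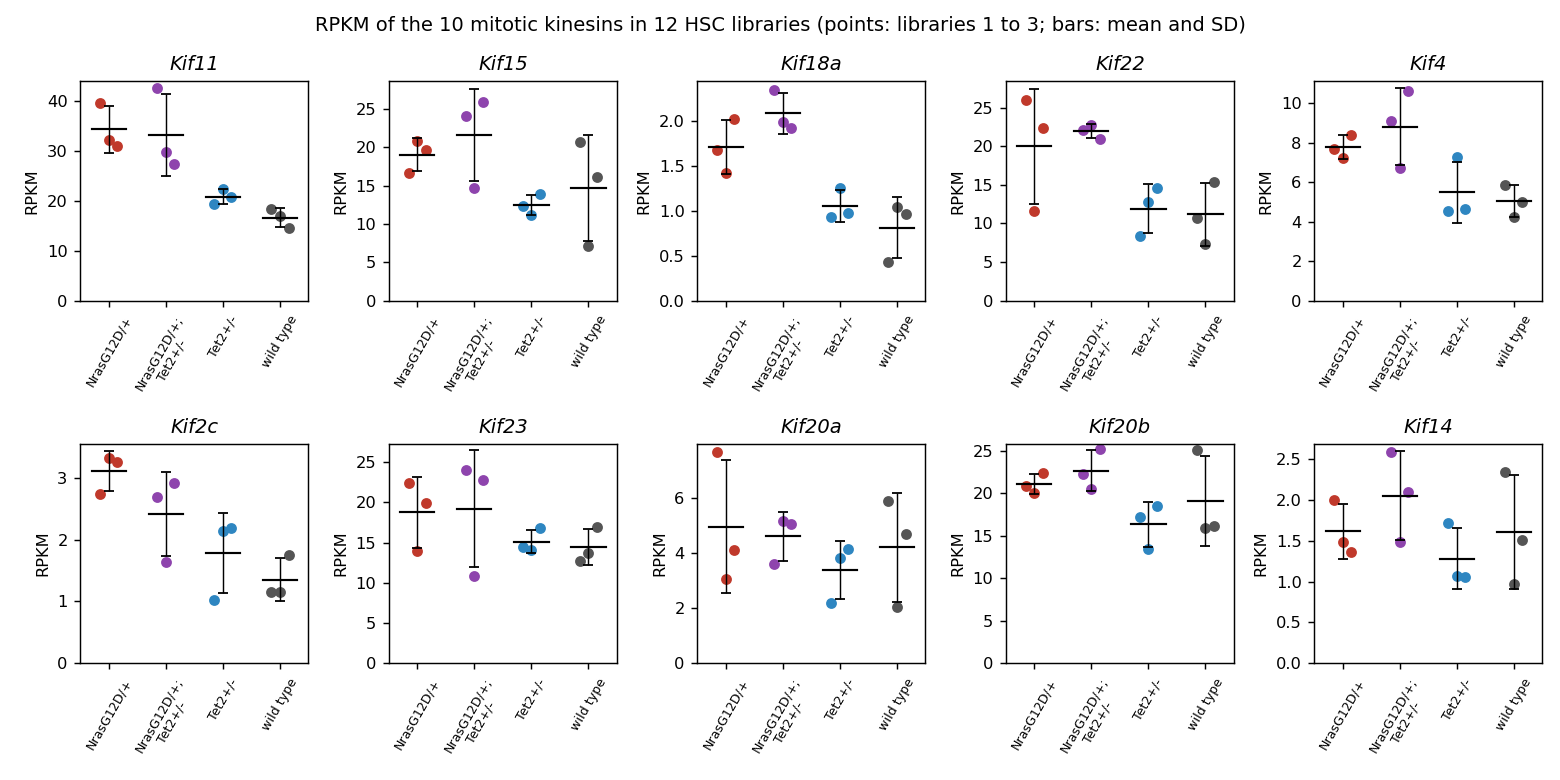
RPKM of each of the 10 kinesins (vertical axis) in the 12 libraries, with the genotypes on the horizontal axis; points are libraries, and bars give the mean and SD of 3 libraries. In the panels of Kif11 and Kif18a all 6 NrasG12D carriers lie above all 6 non-carriers, while in the panels of Kif20a and Kif14 the genotypes overlap.

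In all 10 kinesins, and so in the 4 of chromosome movement, mean log2 values were higher with the Nras allele in both Tet2 backgrounds. This held for 26.6% of all genes. In NrasG12D/+ against wild type Kif14 had only 0.08 on the log2 scale. Its sign and that of Kif20a turned when certain single libraries were left out. Kif18a (chromosome 2, 109280738 to 109341747), a motor that caps the plus ends of kinetochore microtubules and damps chromosome oscillation, stood at 1.68, 1.42 and 2.03 RPKM in NrasG12D/+, at 2.35, 1.98 and 1.92 in compound mutants, at 0.931, 1.26 and 0.971 in Tet2+/- and at 0.424, 1.04 and 0.969 in wild type. Again no carrier overlapped a non-carrier, the nearest pair being 1.42 in NrasG12D/+ replicate 2 and 1.26 in Tet2+/- replicate 2. It had 147 to 1278 reads per library, with the lowest count of any of the 10 in wild-type replicate 1, and the widest span, 5.53-fold between the lowest and the highest library.

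Kif22 (chromosome 7, 127027729 to 127042471), a chromatin-bound motor that pushes chromosome arms toward the spindle equator, stood at 25.9, 11.6 and 22.4 RPKM in NrasG12D/+, at 22.1, 22.7 and 20.9 in compound mutants, at 8.36, 12.8 and 14.6 in Tet2+/- and at 10.7, 7.35 and 15.4 in wild type. The carriers lay above the non-carriers but for NrasG12D/+ replicate 2, which lay among them. Kif4 (chromosome X, 100625737 to 100727214), which works with condensin on chromosomes and with Prc1 at the midzone, stood at 7.66, 7.23 and 8.42 RPKM in NrasG12D/+, at 9.12, 6.72 and 10.6 in compound mutants, at 4.55, 7.28 and 4.62 in Tet2+/- and at 5.86, 4.24 and 5.01 in wild type. Only Tet2+/- replicate 2 reached the range of the carriers. Kif2c (chromosome 4, 117159639 to 117182639), which depolymerizes microtubules at kinetochores and so frees faulty attachments, stood at 2.74, 3.32 and 3.26 RPKM in NrasG12D/+, at 2.69, 1.64 and 2.91 in compound mutants, at 1.03, 2.14 and 2.18 in Tet2+/- and at 1.16, 1.15 and 1.75 in wild type. Its carriers and non-carriers were kept from separating by compound mutant replicate 2.

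In none of the 4 kinesins of the midzone and of cytokinesis did the 6 carriers lie apart from the 6 non-carriers. The same held for Kif15, Kif22, Kif4 and Kif2c above. Kif20b (chromosome 19, 34922361 to 34975745), needed to complete abscission, stood at 20.9, 20.0 and 22.4 RPKM in NrasG12D/+, at 22.3, 20.5 and 25.3 in compound mutants, at 17.2, 13.4 and 18.5 in Tet2+/- and at 25.2, 15.9 and 16.2 in wild type. But for wild-type replicate 1, the 6 carriers lay above the non-carriers. Kif23 (chromosome 9, 61915905 to 61946774), the motor subunit of centralspindlin, stood at 22.4, 13.9 and 20.0 RPKM in NrasG12D/+, at 24.1, 10.9 and 22.7 in compound mutants, at 14.5, 14.1 and 16.8 in Tet2+/- and at 12.7, 13.7 and 16.9 in wild type. The second library of both carrier genotypes lay within or below the range of the non-carriers, and the other 4 carriers lay above it.

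Kif20a, which brings the chromosomal passenger complex to the midzone, stood at 7.68, 3.07 and 4.12 RPKM in NrasG12D/+, at 3.59, 5.18 and 5.04 in compound mutants, at 2.18, 3.82 and 4.13 in Tet2+/- and at 5.88, 2.02 and 4.70 in wild type. Each genotype overlapped each of the others. Kif14 (chromosome 1, 136466343 to 136531511), which places citron kinase at the midbody, stood at 1.99, 1.49 and 1.37 RPKM in NrasG12D/+, at 2.58, 1.49 and 2.10 in compound mutants, at 1.71, 1.07 and 1.06 in Tet2+/- and at 2.34, 0.967 and 1.51 in wild type. The wild-type libraries covered almost the whole range of the other genotypes. Exons of Kif20a share 1271 bases with Cdc23 and those of Kif4 share 832 with Pdzd11, both on the opposite strand, and with 96 and 11 bases for Kif22 and Kif18a the overlaps were smaller. The strand setting of the authors' counting is not given in the sources used here, so part of the reads of Kif20a and Kif4 may belong to those neighbours.

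The comparison of the 6 NrasG12D carriers with the 6 non-carriers, averaged over Tet2 genotype, asked how far the 10 kinesins move with the Nras allele. All 10 had a higher mean log2 value in carriers, where 48.9% of the 15478 tested genes did, and their median log2 difference was 0.65 against -0.01 over all tested genes. None passed the threshold (limma, Benjamini-Hochberg adjusted p under 0.05), which 0.0323% of all genes did. At an unadjusted p under 0.05, 7 of the 10 were higher, against 3.87% of all genes, and none was lower, against 3.37%. Since the list was chosen with earlier results of these data known, these counts are a description and not a test. Kif11 and Kif18a were the 2 without overlap between carriers and non-carriers, a pattern found in the same direction in 0.459% of all genes.

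Kif11 had the smallest p of the 10 and ranked 10 of 15478, with a log2 difference of 0.85 ± 0.12 (SE). Its limma adjusted p was 0.0630 and thus short of the threshold. It passed with library quality weights (adjusted p = 0.0374), with voom on the recovered reads (0.0214) and with sex as a covariate (0.0434), and over all alternatives and left-out libraries its limma adjusted p ranged 0.0214 to 0.225. Kif18a had the largest difference, 1.08 ± 0.33, followed by Kif22 at 0.87 ± 0.24, Kif2c at 0.85 ± 0.29 and Kif4 at 0.67 ± 0.17, with limma adjusted p of 0.452, 0.400, 0.527 and 0.372. Kif15 stood at 0.63 ± 0.25 and Kif20b at 0.33 ± 0.13, the last of those with an unadjusted p under 0.05. Kif20a, Kif14 and Kif23 had differences of 0.37 ± 0.33, 0.38 ± 0.32 and 0.31 ± 0.21. Without wild-type replicate 2, Kif15, Kif14 and Kif20a had 0.40, 0.22 and 0.14, Kif20a had 0.19 without NrasG12D/+ replicate 1 and 0.23 without Tet2+/- replicate 1, and Kif23 had 0.50 without compound mutant replicate 2.

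By role, the log2 differences with the Nras allele were 0.63 and 0.85 for Kif15 and Kif11 of spindle assembly, 0.67 to 1.08 for the 4 kinesins of chromosome movement and 0.31 to 0.38 for the 4 of cytokinesis. All 4 of chromosome movement were higher at an unadjusted p under 0.05, and 1 of 4 of cytokinesis, Kif20b, against 3.87% of all genes. The difference between roles was not tested, and no interval was computed for a role as a group. The 95% intervals of single kinesins could overlap across roles, as with 0.29 to 1.04 for Kif4 and -0.33 to 1.09 for Kif14.

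**Figure D2:**
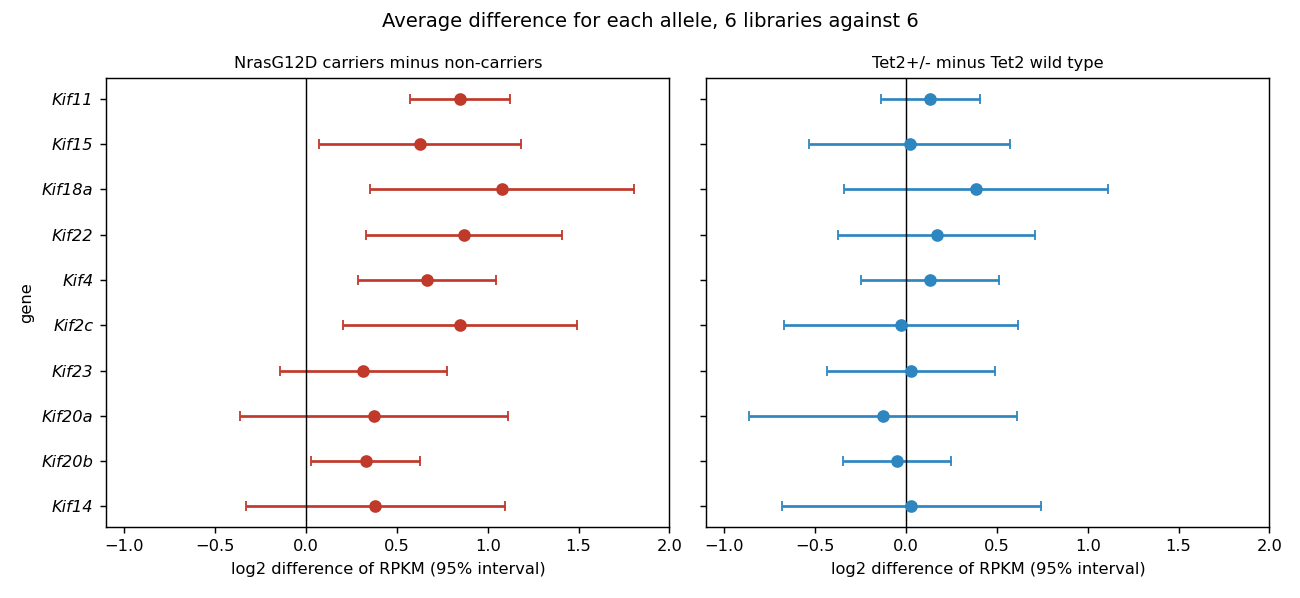
Log2 difference of RPKM (horizontal axis, point with 95% interval) for each kinesin, ordered by role: left, 6 NrasG12D carriers minus 6 non-carriers; right, 6 libraries with 1 Tet2 copy minus 6 with wild-type Tet2. On the left the intervals of 7 kinesins lie above 0, with Kif11 at 0.85 the narrowest of the larger ones, and on the right all 10 intervals include 0.

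Markers of other cell types were read beside this result. The 4 megakaryocyte markers summed to 31.1 to 46.5 RPKM in NrasG12D/+, 34.7 to 39.6 in compound mutants, 18.5 to 27.6 in Tet2+/- and 21.8 to 30.9 in wild type, so that the carriers stood above the non-carriers as the kinesins did. Itga2b and Pf4 were higher in carriers at an unadjusted p under 0.05, Gp9 and Gp1bb were not, and Gp1bb was at 0 reads in 6 libraries. Their part in the result was not tested. The other lists overlapped between carriers and non-carriers. Multipotent progenitor markers summed to 27.2 to 30.1, 31.7 to 35.0, 31.1 to 36.7 and 29.1 to 32.0 RPKM in NrasG12D/+, compound, Tet2+/- and wild-type cells, and erythroid markers to 7.31 to 11.6, 6.25 to 9.37, 3.59 to 8.24 and 5.05 to 8.35. Granulocyte-monocyte markers summed to 5.11 to 13.8, 9.18 to 12.8, 11.8 to 20.4 and 9.24 to 14.5 RPKM in that order, with the neutrophil elastase gene Elane at 0 reads in 9 libraries. B lineage markers reached at most 7.91 RPKM and T and NK markers at most 11.1 in any library. The medians of the T and NK sums were 9.698, 6.671, 1.179 and 1.58 RPKM in NrasG12D/+, compound, Tet2+/- and wild-type cells. These medians were higher in both carrier genotypes, although the lowest library, at 0.1992 RPKM, was of NrasG12D/+. Nkg7 was the only T and NK marker tested, with a log2 difference of 1.28 in carriers and an unadjusted p not under 0.05. The part of T and NK markers in the result was not tested.

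Sex, read from Xist and Ddx3y, was uneven between the sides, with 2 male libraries of 6 among carriers and 3 of 6 among non-carriers. Tet2+/- had 2 male libraries and each other genotype 1. Both male carriers were replicate 1, so among carriers sex and replicate number cannot be told apart. Within the male libraries all 10 kinesins had a higher mean log2 value in carriers, against 53.0% of all genes, and 6 did not overlap, against 11.4%. Within the female libraries all 10 were higher, against 44.9%, and 3 did not overlap, against 3.59%. Kif11 stood at 39.7 to 42.7 RPKM in 2 male carriers against 18.3 to 20.8 in 3 male non-carriers, and at 27.3 to 32.2 in 4 female carriers against 14.6 to 22.4 in 3 female non-carriers. Kif18a separated in both sexes too, at 1.68 to 2.35 against 0.424 to 0.971 in males and 1.42 to 2.03 against 0.969 to 1.26 in females. X-linked Kif4 separated in males, at 7.66 to 9.12 against 4.55 to 5.86 RPKM, and overlapped in females.

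The Nras allele was then followed separately in cells with wild-type Tet2 (NrasG12D/+ against wild type) and in cells with 1 Tet2 copy (compound against Tet2+/-), a pair of comparisons that share no library. In both, all 10 kinesins had a higher mean log2 value with the Nras allele, as 26.6% of all genes did. Kif11, Kif4 and Kif22 had an unadjusted p under 0.05 in both, as did 0.504% of all genes in the higher direction. None passed the threshold in either comparison.

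Between NrasG12D/+ and wild-type cells the median log2 difference of the 10 kinesins was 0.57, and 0.83 without wild-type replicate 1 and NrasG12D/+ replicate 2. No kinesin passed limma's adjusted threshold, against 0.00646% of all genes, and 5 were higher at an unadjusted p under 0.05 against 3.19%. All 10 had a positive difference, against 51.3% of all genes, and Kif11, Kif2c, Kif4 and Kif18a did not overlap, in a direction shared by 5.27% of all genes. Kif11 averaged 34.3 ± 4.71 against 16.6 ± 1.89 RPKM in wild type (log2 1.05 ± 0.17 SE, limma adjusted p = 0.296). Kif2c averaged 3.11 ± 0.323 against 1.35 ± 0.344 RPKM (log2 1.22 ± 0.41, limma adjusted p = 0.860), and Kif18a 1.71 ± 0.304 against 0.812 ± 0.338 (log2 1.16 ± 0.46, and 0.75 without wild-type replicate 1). Kif15, at 0.50 on the log2 scale, moved to 0.05 when wild-type replicate 2 was left out and to 0.82 when replicate 1 of that genotype was. Kif20a and Kif14, at 0.27 and 0.08 on the log2 scale, turned to -0.10 and -0.08 without NrasG12D/+ replicate 1, and to -0.19 and -0.24 without wild-type replicate 2.

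Between compound mutant and Tet2+/- cells the median log2 difference was 0.66. Again no kinesin passed limma's adjusted threshold, against 0.00646% of all genes, and 4 were higher at an unadjusted p under 0.05 against 2.58%. All 10 had a positive difference, against 47.1% of all genes. Kif11, Kif22, Kif20b, Kif18a and Kif15 did not overlap, as 6.22% of all genes did not in this direction. Kif11 averaged 33.2 ± 8.24 against 20.9 ± 1.50 RPKM in Tet2+/- (log2 0.65 ± 0.17 SE, limma adjusted p = 0.604) and Kif22 21.9 ± 0.902 against 11.9 ± 3.21 (log2 0.92 ± 0.34, limma adjusted p = 0.832). Kif20b averaged 22.7 ± 2.42 against 16.4 ± 2.66 RPKM (log2 0.48 ± 0.19), and Kif18a 2.09 ± 0.228 against 1.05 ± 0.177 (log2 0.99 ± 0.46).

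**Figure D3:**
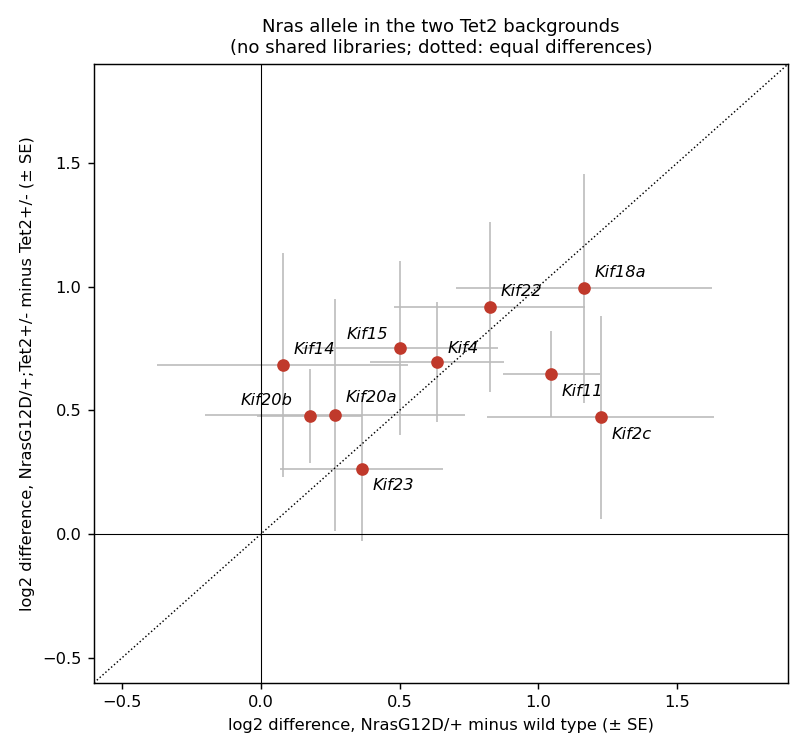
Log2 difference of each kinesin with the Nras allele in cells with wild-type Tet2 (horizontal axis, NrasG12D/+ minus wild type) and in cells with 1 Tet2 copy (vertical axis, NrasG12D/+;Tet2+/- minus Tet2+/-); points are estimates, grey bars are SE, and the dotted line marks equal differences. All 10 points lie above 0 on both axes, with Kif11 at 1.05 and 0.65 and Kif14 at 0.08 and 0.68.

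The interaction asked whether the Nras difference itself depended on Tet2. It did not pass the threshold for any of the 10 kinesins, against 0.0129% of all genes, and none had an unadjusted p under 0.05, as 1.43% of all genes did in the higher and 1.95% in the lower direction. The differences were positive for 6 of the 10, against 46.3% of all genes, and the median over the kinesins was 0.08 on the log2 scale. For Kif11 the difference with the Nras allele was smaller by 0.40 in the Tet2+/- background, but the 95% interval ran from -0.95 to 0.15 (limma, unadjusted p = 0.136, adjusted p = 0.996). Kif2c had -0.75 with an interval of -2.04 to 0.54 and Kif14 0.60 with -0.82 to 2.03, so that differences of more than 2-fold between backgrounds lay within the intervals of both.

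The compound mutants were set against wild type for the effect of both alleles together, a comparison that shares its wild-type libraries with that of NrasG12D/+. No kinesin passed limma's adjusted threshold, against 0.00646% of all genes, 4 were higher at an unadjusted p under 0.05 against 3.36%, and all 10 had a positive difference, against 51.5%, with a median of 0.72. Kif11, Kif18a, Kif22 and Kif4 did not overlap with wild type, in a direction shared by 6.09% of all genes. Kif11 averaged 33.2 ± 8.24 against 16.6 ± 1.89 RPKM (log2 0.98 ± 0.17 SE, limma adjusted p = 0.335), and Kif18a had the largest difference, 1.46 ± 0.46, at 2.09 ± 0.228 against 0.812 ± 0.338 RPKM. Kif22 averaged 21.9 ± 0.902 against 11.15 ± 4.06 RPKM (log2 1.04 ± 0.34) and Kif4 8.82 ± 1.97 against 5.04 ± 0.809 (log2 0.80 ± 0.24). Without wild-type replicate 2 the median came to 0.49 and Kif20a, otherwise at 0.25, had -0.21.

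With loss of 1 Tet2 copy alone the 10 kinesins showed no common direction. Between Tet2+/- and wild-type cells no kinesin passed limma's adjusted threshold (0.00646% of all genes did), and none had an unadjusted p under 0.05, against 1.82% of all genes higher and 1.54% lower. With 6 positive and 4 negative differences, against 54.3% positive among all genes, the median was 0.09. Kif11 was the 1 kinesin without overlap (5.24% of all genes in this direction), at 20.9 ± 1.50 RPKM in Tet2+/- against 16.6 ± 1.89 in wild type, a log2 difference of 0.33 with a 95% interval of -0.05 to 0.72. Kif15 averaged 12.5 ± 1.33 against 14.7 ± 6.90 RPKM and Kif14 1.28 ± 0.374 against 1.61 ± 0.694, but both differences became positive without wild-type replicate 1, at 0.21 and 0.04 on the log2 scale, and that of Kif15 also without wild-type replicate 3, at 0.03.

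Loss of 1 Tet2 copy in cells that carried NrasG12D gave a like result. Between compound mutant and NrasG12D/+ cells no kinesin passed limma's adjusted threshold (0.00% of all genes did), none had an unadjusted p under 0.05 (1.89% of all genes did, higher, and 2.15%, lower), and none separated, against 4.15% of all genes higher and 4.33% lower. The differences were positive for 6 and negative for 4, against 49.1% positive among all genes, with a median of 0.12. Kif11 averaged 33.2 ± 8.24 RPKM in compound mutants against 34.3 ± 4.71 in NrasG12D/+, a log2 difference of -0.07 with a 95% interval of -0.45 to 0.32. Kif2c averaged 2.41 ± 0.682 against 3.11 ± 0.323 RPKM (log2 -0.40, interval -1.31 to 0.51), and the difference was -0.14 without compound mutant replicate 2.

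Averaged over Nras genotype, the 6 libraries with 1 Tet2 copy and the 6 with wild-type Tet2 differed by a median of 0.03 on the log2 scale over the 10 kinesins. None passed limma's adjusted threshold or an unadjusted p under 0.05, where 0.00% of all genes passed and 1.87% were higher and 1.93% lower without adjustment. The differences were positive for 7 of 10, against 52.5% of all genes. The interval for Kif11 was -0.14 to 0.41 and that for Kif18a -0.34 to 1.11.

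The level of the 10 kinesins together was read in each library by taking each gene's log2 value minus its mean over 12 libraries and then the median of these over the genes. It was 0.41, 0.09 and 0.30 in NrasG12D/+, 0.56, 0.06 and 0.48 in compound mutants, -0.42, -0.18 and -0.14 in Tet2+/- and -0.26, -0.66 and -0.12 in wild type. Replicate 2 was the lowest library in both carrier genotypes and in wild type, and wild-type replicate 2 held the lowest value of 5 of the 10 kinesins. The highest values were spread over 4 libraries, all of them carriers, with 4 kinesins highest in compound mutant replicate 1. The spread between replicates was 0.222 (SD).

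Individual kinesins tracked this median to different degrees over the 12 libraries, which differ in genotype and depth. Pearson's r was 0.89 for Kif22 and for Kif4 and 0.83 for Kif11, but 0.58 for Kif14 and 0.57 for Kif20a, each of them a part of the median it was set against. Outside the 10, the genes with the highest r were Top2a at 0.94, Brca1 and Mki67 at 0.92, Cdca7 at 0.91 and Ncaph at 0.90. Top2a, the topoisomerase that untangles chromosomes, averaged 39.0 ± 6.44, 41.7 ± 3.48, 24.7 ± 0.158 and 22.8 ± 2.18 RPKM in NrasG12D/+, compound, Tet2+/- and wild-type cells. Ncaph, a condensin subunit, averaged 5.17 ± 0.501, 6.04 ± 1.44, 2.71 ± 1.05 and 2.57 ± 0.483 RPKM in the same order.

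The kinesins were set beside genes with neighbouring roles in the comparison of NrasG12D carriers with non-carriers. In this comparison 0.0323% of all genes passed the adjusted threshold, and 3.87% were higher and 3.37% lower at an unadjusted p under 0.05. These shares hold for each list below. Of 5 other mitotic kinesins 4 were tested and none passed, with a median log2 difference of 0.57. At an unadjusted p under 0.05, 3 of the 4 were higher and none lower. Cenpe, the kinetochore motor of chromosome congression, averaged 9.11 ± 0.735, 9.53 ± 1.96, 5.66 ± 0.572 and 6.02 ± 1.76 RPKM in NrasG12D/+, compound, Tet2+/- and wild-type cells (log2 0.68 ± 0.16 SE, limma adjusted p = 0.325). Kifc1, which focuses spindle poles, had 0.59 ± 0.26 and Kif18b 0.55 ± 0.24, while Kif2a, a depolymerase also used outside mitosis, had -0.05 ± 0.10.

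Of 22 spindle and midzone partners of these motors none passed the adjusted threshold, 13 were higher (3.87% of all genes) and none lower (3.37%) at an unadjusted p under 0.05, 21 had a positive difference (48.9% of all genes), and the median was 0.56. Hmmr, a spindle pole protein, had a log2 difference of 0.81 ± 0.15 (limma adjusted p = 0.221) and Aspm, another, 0.64 ± 0.14 (limma adjusted p = 0.256), and both separated carriers from non-carriers. Tpx2, an activator of Aurora A, had 0.84 ± 0.22 and Nusap1, a microtubule bundler, 0.73 ± 0.19. Of 14 proliferation genes all had a positive difference, with a median of 0.74, 8 were higher at an unadjusted p under 0.05, and 1 passed, against 0.0323% of all genes: Top2a rose by 0.76 ± 0.09 on the log2 scale in carriers (limma adjusted p = 0.0376). Mki67, the Ki-67 antigen, had 0.93 ± 0.13 with a limma adjusted p of 0.0565, Cdk1, the mitotic kinase, 0.88 ± 0.19 and Mad2l1 of the spindle checkpoint 1.03 ± 0.25.

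Genes listed as transport kinesins and light chains, not all of them cargo motors, showed no common direction. Of 33 transport kinesins and light chains 28 were in the table and 19 were tested, of which none passed, 8 had a positive difference and 11 a negative one, against 48.9% positive among all genes, with a median of -0.06. Kif1c, a vesicle motor, had the smallest p, at -0.97 ± 0.42 (unadjusted p = 0.0435), with 0.725 ± 0.360, 0.951 ± 0.386, 1.49 ± 0.516 and 1.58 ± 0.348 RPKM in NrasG12D/+, compound, Tet2+/- and wild-type cells. The next by p in this list were positive: Kif24 at 0.54 ± 0.26, Kifc2 at 2.40 ± 1.19 and Kif21b at 0.21 ± 0.13. The difference between transport and mitotic kinesins as groups was not tested.

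Of 16 regulators of G2/M transcription, members of the MuvB, E2F and Rb families with Foxm1 and Mybl2, none passed the adjusted threshold, 3 were higher (3.87% of all genes) and none lower (3.37%) at an unadjusted p under 0.05, and the median log2 difference was 0.16. Foxm1, the forkhead factor of G2/M genes, averaged 6.09 ± 1.60, 5.60 ± 0.250, 3.04 ± 0.0376 and 2.97 ± 0.585 RPKM in NrasG12D/+, compound, Tet2+/- and wild-type cells, with carriers and non-carriers apart (log2 0.95 ± 0.17 SE, limma adjusted p = 0.164). E2f7, a repressor, had 0.83 ± 0.29 and Mybl2, the B-Myb partner of MuvB, 0.71 ± 0.31, while E2f3 had -0.31 ± 0.23. The 10 HSC markers had a median of -0.17, with none past the threshold and, at an unadjusted p under 0.05, 2 higher (3.87% of all genes) and 3 lower (3.37%). Fgd5, a guanine nucleotide exchange factor used to mark HSCs, had -0.82 ± 0.17 (limma adjusted p = 0.249) and the transcription factor Hlf -0.37 ± 0.10, while the transcription factor Gata2 had 0.38 ± 0.10 and Ly6a, the Sca1 gene, 0.73 ± 0.24.

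**Figure D4:**
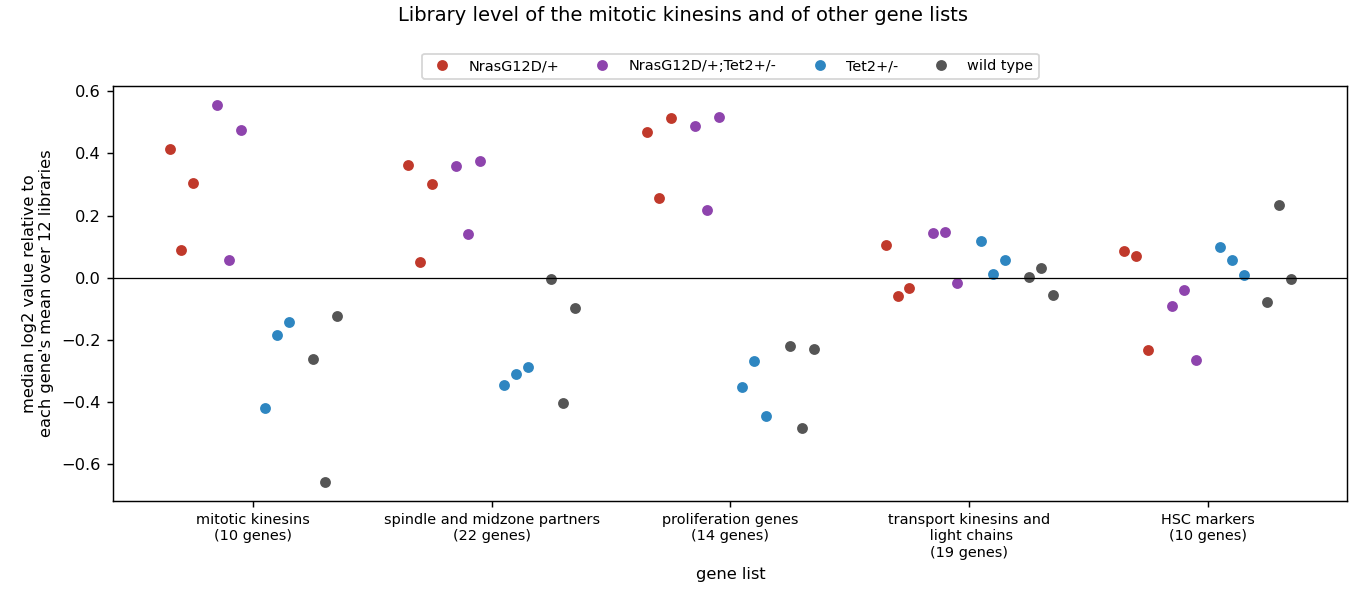
Median log2 value relative to each gene's mean over 12 libraries (vertical axis) for 5 gene lists (horizontal axis); points are libraries, coloured by genotype. The mitotic kinesins run from 0.06 to 0.56 in the 6 carriers and from -0.66 to -0.12 in the 6 non-carriers. The spindle and midzone partners, at 0.05 to 0.37 against -0.40 to -0.003, and the proliferation genes divide likewise. The transport kinesins and the HSC markers overlap between genotypes.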

How the data were processed

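Total RNA, after removal of rRNA and mitochondrial RNA, was sequenced with a stranded kit, per the labels' protocols. The authors deposited log2 RPKM per gene, a unit outside counts and so held here as other, and the submitters' processing notes name CASAVA 1.8.2, TopHat2, edgeR and build mm10. Gene lengths and whole reads were recovered for 100.0% of 18546 genes (prior 0.25 reads, tolerance 0.001 reads), which gave depths of 19205045 to 36890942 reads. Counting intervals would cover counting error only.

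Genes that reached 1 RPKM in 3 or more libraries were fitted with limma 3.58.1 (R 4.3.3) on the deposited log2 values, as 1 mean per genotype over 12 libraries, with a variance trend and 8 residual degrees of freedom, which left out 3068 genes. There were 8 comparisons, p-values were two-sided and adjusted (Benjamini-Hochberg) over 15478 genes, and intervals are at the 95% level. Log2 differences are ± SE and RPKM means ± SD. The method was tested on simulated data. The 10 kinesins and the other lists were chosen with earlier results of these data known. From each list up to 4 genes with the smallest p in the carrier comparison were named, and the 5 genes closest to the kinesin median. Positions came from GENCODE M21. The settings varied were no minimum, log2(RPKM + 0.5), median centring, quantile normalization, only the genotypes compared, a replicate block, quality weights, no trend, voom on recovered reads, the 2 libraries with most genes at 0 reads left out, each library left out and, added after seeing the data, sex as a covariate. No protein sequence was used here.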

Additional observations from a re-analysis of the deposited data

Results flagged for a closer look

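In each of the 20 groups of 6 libraries (10 kinesins in carriers and in non-carriers) the library farthest out was examined by its gap to the next, as a share of the group's range, against a critical value of 0.625, which chance exceeds in about 1 group in 20. There were 3 such libraries. For Kif22 among carriers NrasG12D/+ replicate 2, at 11.6 RPKM, had a gap of 0.733 of the range. For Kif2c among carriers compound mutant replicate 2, at 1.64 RPKM, had 0.702. For Kif18a among non-carriers wild-type replicate 1, at 0.424 RPKM, had 0.724. NrasG12D/+ replicate 2 and wild-type replicate 1 are those in which most genes were at 0 reads, and the part of this in the result was not tested.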

How the results depend on the processing

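The number of kinesins past the threshold was 0 in all 8 comparisons under every setting but for the carrier comparison, where 1, Kif11, passed with quality weights (log2 0.81), with voom (0.85) and with sex as a covariate (0.89). The kinesins' median for NrasG12D/+ against wild type came to 0.81 with quality weights and 0.83 without wild-type replicate 1 and NrasG12D/+ replicate 2, and that of the interaction to -0.16 without those 2. Leaving out each library moved the median of the compound mutant against wild type over 0.49 to 0.94 and that of the interaction over -0.17 to 0.27. In Tet2+/- against wild type Kif18a turned to -0.15 with quantile normalization, Kif15 and Kif20a to 0.23 and 0.26 with quality weights and Kif22 to -0.0061 with voom. Without the 2 libraries Kif15, Kif20a, Kif20b, Kif23 and Kif14 turned to 0.21, 0.076, 0.014, -0.0103 and 0.045. In the compound mutant against NrasG12D/+, Kif20a turned to 0.030 with voom and Kif22 to -0.14 without the 2 libraries. The cause was not tested. Leaving out each library, signs turned in these ranges: NrasG12D/+ against wild type, Kif20a -0.19 to 0.58 and Kif14 -0.24 to 0.40; compound mutant against wild type, Kif20a -0.21 to 0.56. For Tet2+/- against wild type they were Kif15 -0.55 to 0.21, Kif20a -0.69 to 0.076, Kif20b -0.32 to 0.014, Kif23 -0.0103 to 0.20, Kif4 -0.12 to 0.22, Kif22 -0.15 to 0.39 and Kif14 -0.59 to 0.045. For the compound mutant against NrasG12D/+ they were Kif11 -0.26 to 0.062, Kif15 -0.0099 to 0.40, Kif20a -0.31 to 0.35, Kif23 -0.23 to 0.35 and Kif22 -0.14 to 0.44. Replicate numbers were not taken as pairs in the main fit. Of 18 same-numbered pairs 2 correlated over 0.1 in their deviations (-0.125 to 0.136). Yet for 8 of 12 libraries the closest library of another genotype had the same number. These values do not settle whether same-numbered libraries belong together. Number and sex go together here: by Xist and Ddx3y, every replicate 1 came out male and every replicate 2 female. With a replicate block no kinesin passed in any comparison, and Kif11 in the carrier comparison kept 0.85 (limma adjusted p = 0.0660). Kif2c and Kif18a had the fewest reads in all, 7050 and 8599 over the 12 libraries, and so the largest counting error.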

Other observations

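The gene lengths behind the deposited RPKM followed no single definition. Of 12196 genes with 1 annotated entry and more than 1 transcript, the length equalled the summed exons of all transcripts for 7257 (59.5%) and the longest transcript for 255 (2.10%). Among the kinesins 4 of 10 had the summed length. Kif18a stood at 1.71 ± 0.304 RPKM in NrasG12D/+ as deposited and at 8.79 ± 1.56 when rescaled to its longest coding transcript, and Kif14 at 1.615 ± 0.334 and 5.08 ± 1.05.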
